A study of Mus musculus with 44 samples.

Results

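The oligodendrocyte lineage was followed through 9 genes in ribosome-bound mRNA captured from hippocampi whose tagged cells are mostly excitatory neurons. The genes are *Mbp*, *Mog*, *Mag*, *Cnp*, *Mobp*, *Olig1*, *Pdgfra*, *Sox10* and *Paqr6*, and they are 9 of the 55335 genes in the deposited TRAP-seq count table. They were taken by symbol through the GENCODE annotation of GRCm38, and each symbol matched 1 row. The set was selected on measured values of these libraries as well as on names. *Mbp* to *Sox10* are familiar markers of the lineage, whereas *Paqr6* was chosen by its difference between exercised and sedentary mice in the left hippocampus and its covariation with other members, so both of these are given only as descriptions. On GRCm38, *Mog* lies at chr17:37010743-37023398 (minus strand), *Mag* at chr7:30899176-30914873 (minus), *Cnp* at chr11:100574904-100591729 (plus) and *Mobp* at chr9:120149707-120181484 (plus). *Olig1* lies at chr16:91269772-91271933 (plus), *Sox10* at chr15:79154908-79165240 (minus), *Pdgfra* at chr5:75152292-75198215 (plus) and *Paqr6* at chr3:88364584-88368541 (plus). Values are counts over all annotated exons of a gene, given as CPM, which are counts scaled to a common library size with TMM factors.

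All TRAP-seq libraries came from Emx1-NuTRAP mice. The Emx1-Cre line in these animals switches on tags on ribosomes and nuclei in each cell that has expressed Emx1, so progenitors and astrocytes of that lineage can carry them besides neurons. Mice with early-life exercise (ELE) could use a wheel between postnatal days 21 and 41, and sedentary mice had none. Simultaneous isolation of nuclei and RNA (SIT) used both hippocampi of a mouse and gave 4 ELE and 4 sedentary libraries. Separate isolation used 1 hippocampus for RNA and gave 3 ELE and 3 sedentary libraries from the left side and as many from the right. Each library came from 1 mouse. The comparison material was the left dorsal hippocampus of C57Bl/6J mice without a tag, sequenced as bulk RNA in 24 columns. Those columns mix sedentary mice and mice that had a wheel on days 21 to 41, 21 to 27 or 35 to 41, with 3 or 10 min of object location memory training or none, and they could not be matched to single samples, so they were used only together as 1 reference. The names of 18 columns start with WT, of 2 with LBN and of 4 with HC, and the sources used here do not say what these names stand for. In the 4 HC columns *Pdgfra* was below its level in each of the other 20, so values against bulk are also given without them, a choice made after seeing the data. Between 45895097 and 65767802 counts fell on genes in a TRAP library (median 54422374.5) and between 39856044 and 61636303 in a bulk column, and *Paqr6*, the member with the lowest CPM, had between 235 and 1193 counts in a TRAP library.

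Oligodendrocyte progenitors carry the growth factor receptor encoded by *Pdgfra* and divide until they commit to differentiation, a step that the transcription factors encoded by *Olig1* and *Sox10* help to direct. Mature oligodendrocytes then wrap axons in myelin. *Mbp* encodes myelin basic protein, which holds the inner faces of the membrane together, *Mobp* a related small protein of compact myelin, *Mag* an adhesion protein that faces the axon, *Mog* a glycoprotein of the outermost lamella and *Cnp* a nucleotide phosphodiesterase of non-compact myelin. Transcripts of *Mbp* and *Mobp* are known to be carried out to the myelin processes and translated there. *Paqr6* encodes a receptor of the progestin and adipoQ family, whose ligands include steroids. The hippocampus of adolescent mice is still adding myelin, and some oligodendrocytes of the dorsal forebrain are known to descend from Emx1-expressing progenitors.

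Proximal promoters were looked up in RefSeq (GRCm38.p6) as the 250 bases before an annotated transcription start. Entries were used for *Mog*, *Mag*, *Cnp*, *Mobp*, *Pdgfra* and *Paqr6*, which is 6 of the 9 genes; none was found for *Olig1* and *Sox10*, and *Mbp* is not shown. Of these windows, 4 are printed 5′ to 3′ on the strand of the gene because they span the range from the myelin gene with the most matches to the Sox-type hexamer ACAAAG to *Paqr6*, which has none. The hexamer is the core that proteins of the Sox family, among them Sox10, are known to bind. Capitals mark ACAAAG or, for the other strand, CTTTGT.
Mobp: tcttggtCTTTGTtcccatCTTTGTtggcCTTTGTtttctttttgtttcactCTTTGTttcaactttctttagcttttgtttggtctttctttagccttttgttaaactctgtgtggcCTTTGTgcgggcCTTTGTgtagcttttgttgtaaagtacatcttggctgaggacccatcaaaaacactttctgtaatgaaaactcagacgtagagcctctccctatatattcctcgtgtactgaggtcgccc
Cnp: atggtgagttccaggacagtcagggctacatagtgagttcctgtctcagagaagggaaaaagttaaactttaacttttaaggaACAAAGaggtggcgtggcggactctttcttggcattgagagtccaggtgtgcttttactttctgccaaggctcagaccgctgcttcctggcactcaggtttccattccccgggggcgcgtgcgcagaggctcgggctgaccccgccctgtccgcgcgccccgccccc
Mag: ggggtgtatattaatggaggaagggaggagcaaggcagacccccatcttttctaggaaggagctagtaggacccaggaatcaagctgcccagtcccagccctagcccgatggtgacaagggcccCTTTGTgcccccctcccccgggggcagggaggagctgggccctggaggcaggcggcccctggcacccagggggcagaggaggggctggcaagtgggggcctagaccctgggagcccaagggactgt
Paqr6: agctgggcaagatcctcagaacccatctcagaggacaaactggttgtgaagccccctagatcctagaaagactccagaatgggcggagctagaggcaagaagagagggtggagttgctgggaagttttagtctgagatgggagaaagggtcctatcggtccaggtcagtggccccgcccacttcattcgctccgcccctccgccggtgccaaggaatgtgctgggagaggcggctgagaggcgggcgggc
The *Mobp* window (chr9:120149492-120149741, plus strand) holds 6 matches, all of them as CTTTGT. No other of the 32851 windows in the table holds 6, and 16.5% of the windows hold at least 1. *Cnp* (chr11:100574689-100574938, plus strand) has 1 match, and *Mag* (chr7:30914864-30915113, minus strand) has 1 in the window shown. The windows of *Mog*, *Pdgfra* and *Paqr6* (chr3:88364339-88364588, plus strand) have 0. A match describes these letters and is not evidence of binding.

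Some SIT libraries stood apart, and this affects several members. The published SIT comparison used 3 ELE and 2 sedentary libraries, and a search over subsets of the 8 showed that it left out NT6.304 among the ELE mice, and NT7.2.3 with NT7.2.4 among the sedentary ones. In NT7.2.3 and NT7.2.4 mitochondrial genes took 8.64% and 9.64% of the counts, against 0.195% to 0.523% in the other SIT libraries. Summed markers of microglia reached 253 CPM and those of interneurons 854 CPM among the sedentary SIT libraries, and without this pair they were at most 10.98 and 76.1 CPM. *Mag* stood at 154 and 146 CPM in NT7.2.3 and NT7.2.4, and at 55.9 to 88.3 CPM in the other 18 libraries, so the pair did not overlap with them. Results that rest on SIT are given for the 5 libraries that were kept, and with all 8 where this changes them. The markers of excitatory neurons, the labelled cell type, summed to 9122 to 13210 CPM over the 20 libraries.

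Transcripts of every member were present in each TRAP library. Levels were also taken per kilobase of exon, with all annotated exons of a gene merged. The median over the 20 libraries was 178 CPM per kb for *Mbp*, 99.2 for *Olig1*, 67.2 for *Mobp* and 58.4 for *Cnp*. *Mog* followed with 26.3 CPM per kb, *Mag* with 18.8, *Sox10* with 11.2, *Paqr6* with 6.12 and *Pdgfra* with 3.94. The myelin genes therefore covered a wide range, and on this scale *Olig1* ranked above all of them except *Mbp*. In CPM the median of *Mobp* (460) was above that of *Olig1* (214.5). The rank thus depends on the annotated length, which can differ from that of the expressed transcripts.

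*Mbp*, the most abundant member, had group medians from 1248 CPM in SIT ELE mice to 1739 CPM in left sedentary mice, with overlap between neighbouring groups. It had 1566, 1739 and 1778 CPM in the left hippocampi of sedentary mice and 1415, 1452 and 1624 CPM in those of ELE mice. On the right it had 1175, 1250 and 2057 CPM in sedentary mice and 1246, 1414 and 1444 CPM in ELE mice. The right sedentary value of 2057 CPM belonged to mouse TG7.3.3 and was the highest of all 20 libraries. In the SIT libraries that were kept, *Mbp* had 1432 and 1662 CPM in sedentary mice and 1088, 1248 and 1896 CPM in ELE mice. When the 6 groups were ordered by their medians, each group overlapped with its neighbours in the order, and the same held for *Mog*, *Mag*, *Cnp*, *Mobp* and *Olig1*.

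*Pdgfra*, *Sox10* and *Paqr6* had groups that parted from a neighbour. The groups are small and the share of all genes with such gaps was not counted, so the gaps are only described. *Pdgfra* was at 31.5 and 33.8 CPM in the kept sedentary SIT libraries, below the 38.8 to 43.2 CPM of the left sedentary libraries next to them. NT7.2.3 and NT7.2.4 had 41.0 and 44.6 CPM, so with all 4 sedentary SIT libraries the groups overlapped. *Sox10* was at 37.8 and 41.7 CPM in the same SIT libraries, above the 32.5 to 37.1 CPM of the left ELE libraries. *Paqr6* was highest in the left hippocampi of sedentary mice, at 20.4, 20.46 and 22.04 CPM, and these values lay above all 17 other libraries. Its right ELE libraries, at 15.2 to 16.02 CPM, also parted from the left ELE ones, at 12.5 to 14.6 CPM. *Paqr6* was picked on the left libraries, so its gaps are no test. *Paqr6* also had the widest spread relative to its mean over the 20 libraries, with a coefficient of variation of 34.1%, against 16.8% for *Mbp* and 30.2% for *Mag*.

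**Figure D1:**
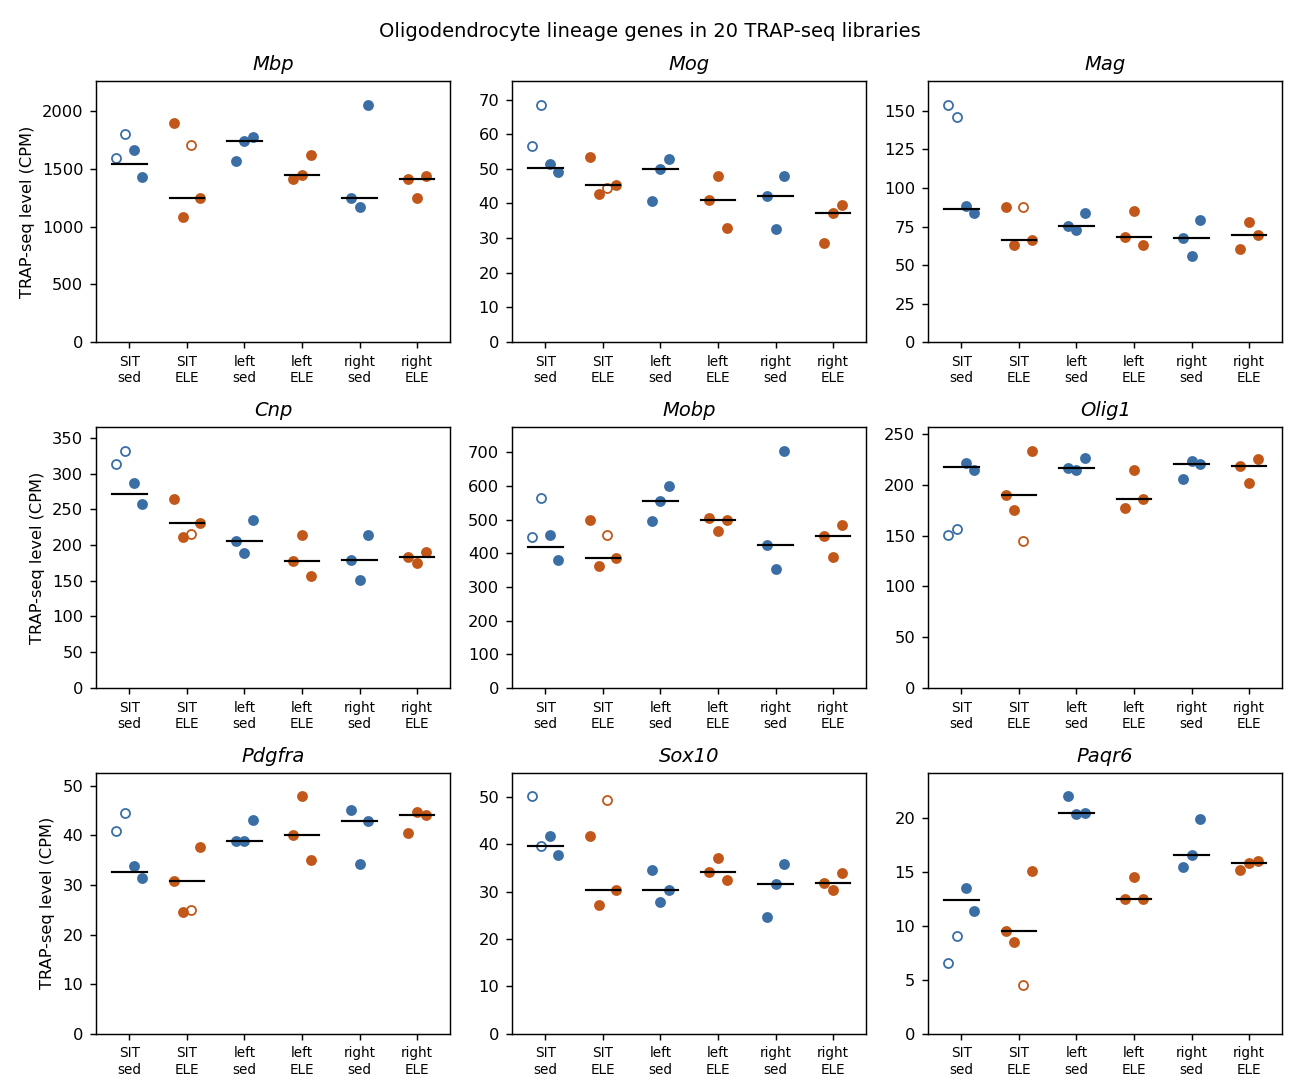
Level of each of the 9 genes in CPM (y axis) in the 6 groups of TRAP libraries (x axis), 1 panel per gene. Each point is 1 mouse, open points are the 3 SIT libraries left out of the comparisons, and bars are medians of the remaining libraries. *Paqr6* is highest in the 3 left sedentary libraries (20.4 to 22.04 CPM), and *Mag* is highest in 2 open points (146 and 154 CPM).

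The bulk reference gave the level of the same transcripts in untagged tissue. For this purpose both tables were scaled together over the 34776 gene names that they share, and the median gene differed by -0.02 on the log2 scale between TRAP and bulk. *Mag* had 59.3, 80.8 and 160 CPM (lowest, median and highest of the 20 TRAP libraries) and 284, 385 and 511 CPM in the 24 bulk columns. The TRAP median was 21.0% of the bulk median. All TRAP libraries lay below all bulk columns.

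The other genes of compact and non-compact myelin were also lower. *Mobp* had 374, 491.5 and 753 CPM in TRAP against 846, 1598 and 3044 CPM in bulk, a TRAP median of 30.8% of bulk. *Cnp* had 161, 227 and 346 CPM against 525, 718 and 965 CPM, which is 31.7%. *Mbp* had 1177, 1593 and 2198 CPM against 2249, 4104 and 8480 CPM, which is 38.8%. For these 3 genes too, TRAP and bulk did not overlap, although for *Mbp* the gap was narrow. It closed when table rows that belong to 1 symbol were summed before scaling, with a highest TRAP value of 2209 and a lowest bulk value of 2170 CPM. Of the 9 members, 4 were lower in TRAP without overlap and 0 were higher, where 7.45% and 7.54% of the 14438 expressed genes were lower and higher in this way. Without the 4 HC columns 6 members were lower, *Pdgfra* and *Sox10* besides these 4, and 0 were higher, where 15% and 15.7% of all expressed genes were. The medians of *Mag*, *Cnp*, *Mobp* and *Mbp* were then 21.0%, 31.7%, 31.9% and 38.1% of bulk.

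*Mog* depended on how the bulk table was read. That table holds 4 rows for *Mog*, the gene itself and 3 numbered copies, and the first row had 19.9, 30.3 and 52.7 CPM. Read this way the bulk median was below the TRAP median of 47.9 CPM, and the ranges overlapped. With the 4 rows summed, bulk had 72.9, 106 and 179 CPM, the TRAP median was 45.7% of that, and the highest TRAP library (72.3 CPM) was below the lowest bulk column (72.86 CPM). The TRAP table has a single row for *Mog*. Its level against bulk is therefore uncertain, and the log2 ratio changed sign from 0.65 to -1.12 between these readings.

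Of the progenitor and transcription factor genes, *Olig1* and *Pdgfra* were closer to bulk than the 4 myelin genes whose ranges did not overlap, and *Sox10* was about level with *Mbp*. *Olig1* had 153, 227 and 252 CPM in TRAP and 167, 255 and 311 CPM in bulk, so its median was 89.3% of bulk. *Pdgfra* had 26.5, 41.7 and 50.6 CPM against 29.8, 60.8 and 73.5 CPM, or 68.6%. *Sox10* had 25.9, 35.9 and 52.5 CPM against 44.1, 87.5 and 101 CPM, or 41.1%. All 3 overlapped between TRAP and bulk, and for *Pdgfra* and *Sox10* the overlap lay in the HC columns alone. *Pdgfra* had between 29.8 and 42.2 CPM in the 4 HC columns and between 54.6 and 73.5 CPM in the other 20, all above the highest TRAP library. *Sox10* had between 44.1 and 82.8 CPM in the HC columns and between 66.5 and 101 CPM in the others, again above all TRAP libraries. *Olig1* had between 167 and 254 CPM in the HC columns and between 202 and 311 CPM in the others, which still overlapped with TRAP. Without the HC columns the TRAP medians were 84.9% of bulk for *Olig1*, 67.2% for *Pdgfra* and 40.04% for *Sox10*. What sets the HC columns apart was not tested. *Paqr6* was the one member with a higher median in TRAP under both readings of the bulk table, at 4.84, 15.7 and 23.2 CPM against 4.51, 7.26 and 9.84 CPM (217%), and it too overlapped, with all bulk columns and without the HC columns (221%).

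Longer lists of lineage genes also differed from bulk. Of 32 genes of mature oligodendrocytes and myelin, the 5 myelin members included, 31 had a ratio below 1. Over all expressed genes 7373 of 14438 did. Of the 32, 22 lay below bulk without overlap, where 7.45% of expressed genes did, and the median gene was at 32.4% of bulk. Without the HC columns 24 lay below, where 15% of expressed genes did, and the median was 32.5%. *Pllp* was at 7.89% and *Car2*, which encodes carbonic anhydrase II, at 67.9%. The median of 16 progenitor genes was 65.9%, that of 10 genes of committed progenitors 74.9% and that of 10 lineage transcription factors 54.1%. For other cell types the medians were 1.82% for microglia, 1.77% for endothelial cells, 4.85% for interneurons, 107% for astrocytes and 134% for excitatory neurons. Over the 20 libraries the median myelin gene was thus closer to bulk than the median markers of microglia, endothelium and interneurons were. The median over all genes was 98.4%. Genotype, part of the hippocampus, side and RNA fraction differ together between TRAP and bulk and cannot be told apart, and neither can fewer cells of a type and less RNA per cell. Genes with several rows in the bulk table, *Aif1*, *Cldn5* and *Trem2* among them, were read from the first.

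NT7.2.3 and NT7.2.4 were nearer to bulk for some members than the other TRAP libraries were. *Mag* was at 41.5% and 39.6% of the bulk median in these libraries, against 20.3% for the median of the other 18. *Cnp* was at 45.4% and 48.3%, against 30.8%, and *Paqr6* at 94.1% and 130%, against 222%. *Mbp* was at 40.3% and 45.8%, against 37.4%. In the same pair the median microglial marker was at 94.2% and 99.8% of bulk and the median interneuron marker at 133.6% and 141.7%, far from their levels in the other libraries. Their part in the values of *Mag*, *Cnp* and *Paqr6* was not tested. Without this pair, *Mag*, *Cnp*, *Mobp* and *Mbp* still lay below bulk, and 26 of the 32 myelin genes did so, where 11.2% of all genes did, against 7.45% with the pair.

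**Figure D2:**
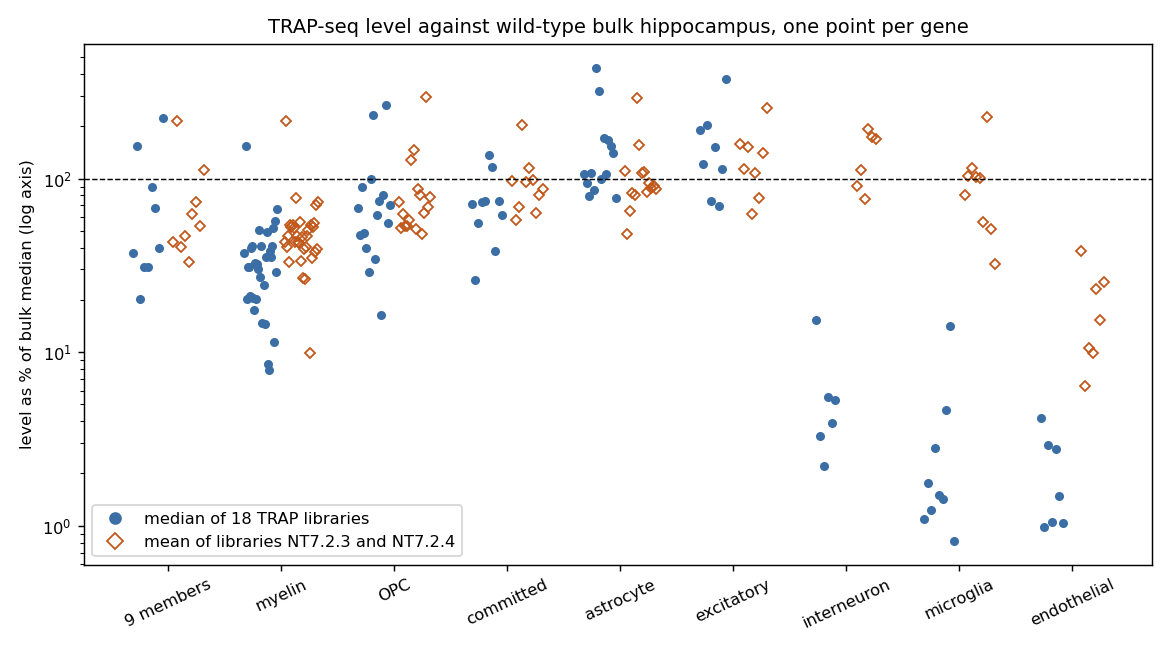
TRAP level as a percent of the bulk median (y axis, log scale) for the genes of each list (x axis). Points are genes, drawn from the median of 18 TRAP libraries and separately from NT7.2.3 and NT7.2.4, and 100% means equal to bulk. The 9 members range from 20.3% for *Mag* to 222% for *Paqr6*, and in those libraries most microglial, endothelial and interneuron genes lie below the myelin genes, whereas in NT7.2.3 and NT7.2.4 microglial and interneuron genes lie near or above bulk.

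The members did not vary together as 1 block. Across the 20 TRAP libraries the 36 pairs of members had Pearson's r of log2 CPM between -0.64 and 0.87, with a median of 0.23. *Mbp* and *Mobp* had r = 0.86 over the 20 TRAP libraries, 0.97 over the 12 separately isolated ones, 0.89 over the 8 SIT libraries and 0.95 over the 24 bulk columns. *Mag* and *Cnp* had 0.85, 0.84, 0.87 and 0.97 in the same order. Without the HC columns the bulk values were 0.99 and 0.97. Between these couples the values were lower. For *Mbp* and *Mag* r was 0.51 over the 20 TRAP libraries, 0.49 over the 12 separate ones and 0.64 over the 8 SIT libraries. Over the bulk columns it was 0.35, or 0.23 without the HC columns. *Cnp* and *Mobp* had 0.20 over the 20 TRAP libraries, but 0.68 over the separate and 0.70 over the SIT libraries. How far the couples stood apart therefore depended on the libraries. *Mog* went with *Mag* and *Cnp*, at 0.81 and 0.86 in TRAP and 0.84 and 0.88 in bulk (0.94 and 0.96 without the HC columns). With *Mobp*, *Mog* had 0.39 over the 20 TRAP libraries but 0.82 over the 8 SIT libraries. These are descriptions across libraries that share scaling and groups, and they have no test.

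The spread in bulk differed in the same way. *Mbp* covered a 3.77-fold range over the 24 bulk columns and *Mobp* a 3.6-fold range, with coefficients of variation of 32.2% and 31.6%. *Mag* and *Cnp* covered 1.8-fold and 1.84-fold ranges, with a coefficient of variation of 15.9% for *Mag*. Without the HC columns the ranges of *Mbp* and *Mobp* stayed at these values, and those of *Mag* and *Cnp* were 1.66-fold and 1.68-fold. In the 12 separately isolated TRAP libraries the ranges were 1.76-fold for *Mbp*, 2.01-fold for *Mobp*, 1.52-fold for *Mag* and 1.55-fold for *Cnp*. The bulk columns mix treatments that could not be assigned, so their spread holds differences between treatments as well as between animals.

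**Figure D3:**
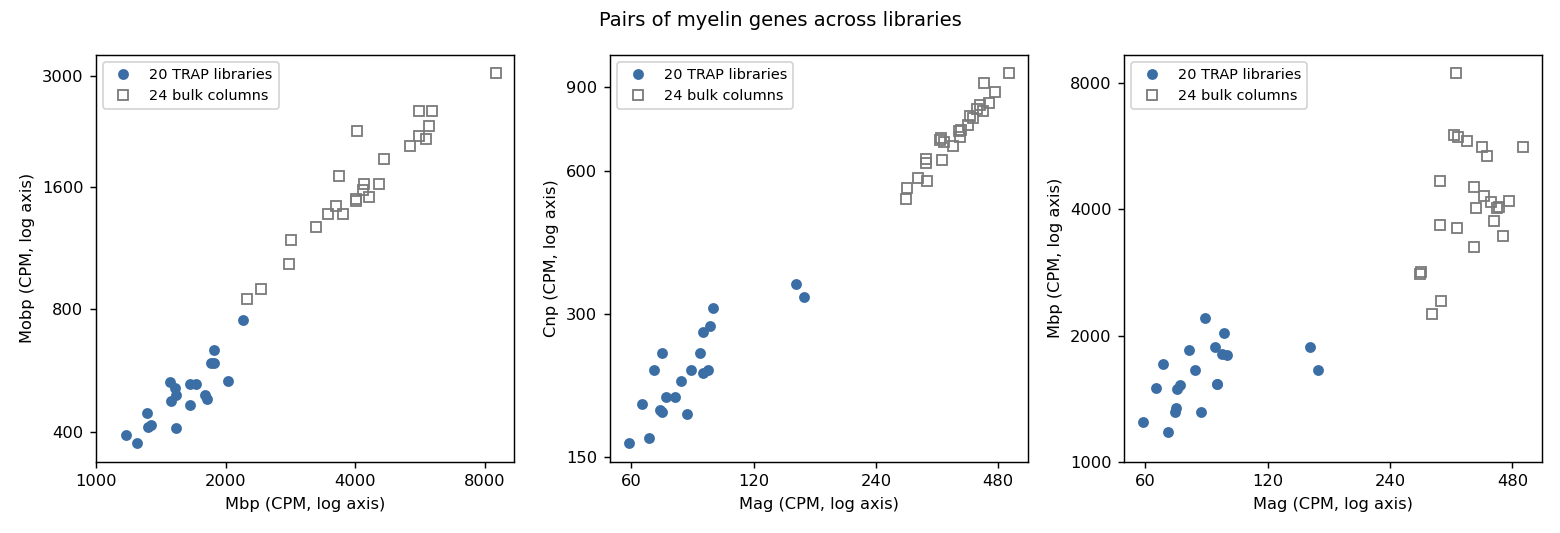
Levels of 3 pairs of myelin genes in CPM (both axes log scaled) in 20 TRAP libraries (filled circles) and 24 bulk columns (open squares). *Mbp* and *Mobp* lie along a line in bulk (r = 0.95), as do *Mag* and *Cnp* (r = 0.97), while *Mbp* and *Mag* scatter (r = 0.35).

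Between SIT and separate isolation *Cnp* was higher and *Pdgfra* lower in SIT by adjusted p, *Paqr6* had a lower median there, and the other 6 members did not pass the test. With all 8 SIT libraries *Mog*, *Mag* and *Sox10* passed by adjusted p as well. The 5 SIT libraries that were kept were set against the 12 separately isolated ones, with exercise in the model. *Cnp* had 265, 211 and 230 CPM in the ELE and 287 and 257 CPM in the sedentary SIT libraries, and 151, 186 and 235 CPM (lowest, median and highest) in the 12 separate libraries. SIT libraries were at the upper end, with an overlap between 211 and 235 CPM. The log2 fold change was 0.42 with a standard error of 0.082 (adjusted p = 0.000777, edgeR's quasi-likelihood test with Benjamini-Hochberg adjustment over all genes).

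For *Paqr6* the values are a description, since it was picked on left libraries and on covariation over all of them. It had 9.55, 8.51 and 15.1 CPM in the ELE and 13.5 and 11.4 CPM in the sedentary SIT libraries, against 12.5, 15.9 and 22.04 CPM in the separate ones. Its log2 fold change was -0.48 with a standard error of 0.12, and -0.77 with all 8 SIT libraries. *Pdgfra* had 30.8, 24.6 and 37.6 CPM in ELE and 33.8 and 31.5 CPM in sedentary SIT libraries, against 34.3, 41.8 and 47.9 CPM. Of the 5 kept SIT libraries, that of ELE mouse TG7.4.2 reached into the separate range, and so did NT7.2.3 and NT7.2.4 with 41.0 and 44.6 CPM. The log2 fold change of *Pdgfra* was -0.38 (standard error 0.089, adjusted p = 0.00302 from edgeR), a fold slightly inside the limit of 1.308 that the call also requires. With all 8 SIT libraries it was -0.31 (edgeR, adjusted p = 0.0266).

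By the call used here, an unadjusted p under 0.05 and a change of more than 1.308-fold, 1 of the 8 members other than *Paqr6* was higher (*Cnp*) and 0 were lower in SIT, where 4.89% of the 18843 genes tested were called higher and 9.52% lower, 14.4% together. At a limit of 1.3-fold, an alternative chosen after seeing the data, *Pdgfra* was called lower too. By the adjusted p alone 1 of the 8 was higher and 1 lower, where the shares of all genes were 12.1% and 13.4%, 25.5% together. With 8 members these counts are near the shares of all genes and are not read as a result about the set. The other members were not called. *Mog* differed by 0.26 (edgeR, adjusted p = 0.0783), *Sox10* by 0.16 (0.265), *Mag* by 0.14 (0.332), *Olig1* by -0.01 (0.902), *Mbp* by -0.03 (0.905) and *Mobp* by -0.22 (0.183). With all 8 SIT libraries *Mag* was also called, at 0.41 (edgeR, adjusted p = 0.0258). *Mog* at 0.32 (0.0211) and *Sox10* at 0.31 (0.0362) then passed by adjusted p but stayed under the fold limit, and *Cnp* was at 0.47 (0.000198), so that with *Pdgfra* 5 of the 8 members passed in place of 2, where 19.5% of all genes did. *Cnp* fell just under the fold limit without NT6.303 (0.378) or without NT6.305 (0.375), and *Pdgfra* passed it when TG9.1.2, TG7.4.2, NT6.305, NT6.306, TG9.1.4, TG9.1.1 or TG7.3.4 was left out, with log2 fold changes from -0.3876, just past the limit, to -0.4591. With only the SIT mice numbered TG7.4 and the ELE libraries, *Cnp* (0.27) was not called, and *Paqr6* was at -0.29. Against the left libraries alone *Cnp* was at 0.38 and not called. Among ELE libraries alone *Cnp* was at 0.36 (edgeR, adjusted p = 0.0373) and also under the fold limit, while *Pdgfra* was at -0.44 and past it (adjusted p = 0.0552).

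Among the longer lists, 3 of 32 myelin genes were called higher in SIT, where 4.89% of all genes were, among them *Ermn* (0.54), which encodes ermin, and *Cnp*, and 0 lower. By adjusted p 5 were higher and 0 lower, where 12.1% and 13.4% of all genes were, and the median change was 0.11. Of 16 progenitor genes 4 were called lower, where 9.52% of all genes were, *Ptprz1* (-0.73), *Xylt1* (-0.66), *Cspg4* (-0.53), which encodes the NG2 proteoglycan, and *Sox6* (-0.41), and 0 higher. The median of that list was -0.02, close to the -0.01 over all genes, and 6 of its 16 genes were positive. In the family of *Paqr6*, 11 genes were tested, *Paqr6* included, and 2 were positive, with a median of -0.235. *Mmd* (0.40) was called higher, where 4.89% of all genes were. With *Paqr6* itself 2 were past the call on the lower side, where 9.52% of all genes were. The other was *Paqr8* (-0.53), which encodes another membrane progestin receptor. By adjusted p 1 was higher and 5 lower, *Paqr6* among them, where 12.1% and 13.4% of all genes were. The lists share libraries and some genes, and no test was made of the lists.

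Astrocyte markers were lower in SIT, as *Paqr6* and *Pdgfra* were and *Cnp* was not. Of 14 of them 0 had a positive value, and the median was -0.50. Of these 14, 9 were called lower in SIT and 0 higher, where 9.52% and 4.89% of all genes were, with *Fgfr3* at -0.82, *Aldh1l1* at -0.68 and *Slc1a2* at -0.67 having the smallest p. Their summed level was 5278 to 8677 CPM in the 5 SIT libraries and 8022 to 11260 CPM in the 12 separate ones. Of 6 interneuron markers 4 were called higher, against the same 4.89%, and their sum was 63.5 to 76.2 CPM against 40.5 to 74.5 CPM. Of 7 endothelial markers 0 were positive (median -1.33), and of 10 microglial ones 7 were (median 0.47). Of 8 excitatory markers 3 were lower and 3 higher by adjusted p, where 13.4% and 12.1% of all genes were. Among these *Camk2a* was at -0.60. The part of these cell types in the differences of *Cnp*, *Paqr6* and *Pdgfra* was not tested. SIT and separate isolation also differed in the mice and in the use of both hippocampi or 1, and these cannot be told apart from the isolation itself. P-values measure the spread between libraries of 1 mouse each.

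**Figure D4:**
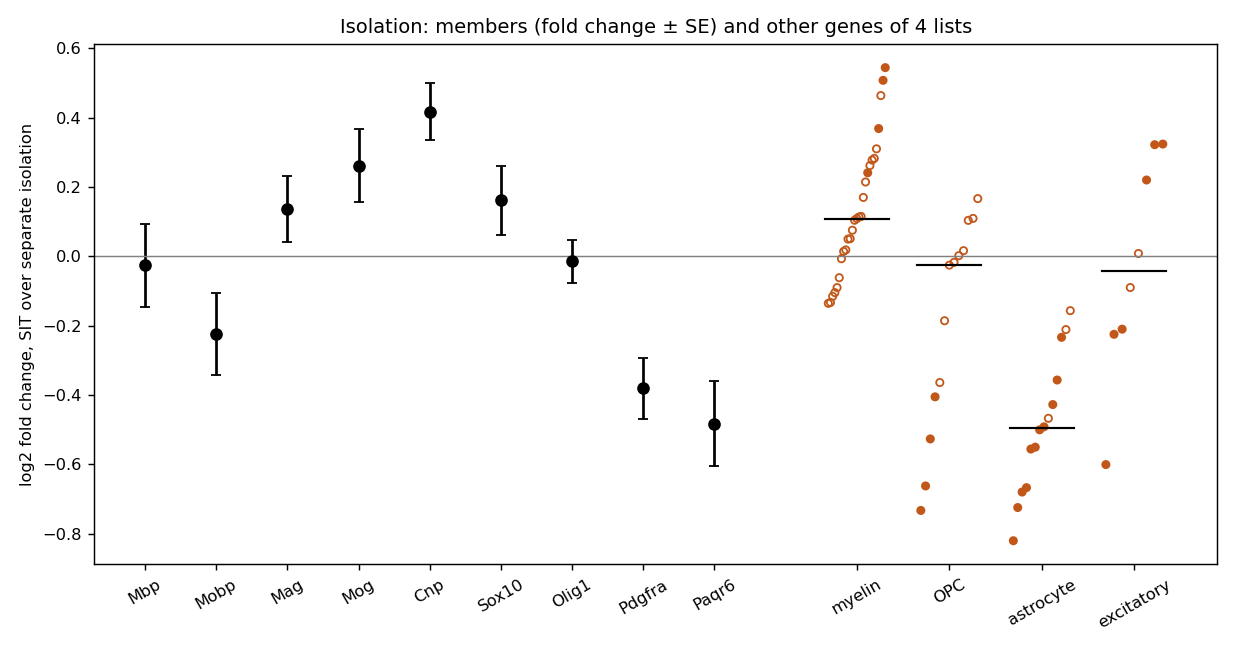
Log2 fold change of SIT against separately isolated libraries (5 against 12) for the 9 members with standard errors, and for genes of 4 lists (filled points have an adjusted p under 0.05, lines are list medians). *Cnp* is highest of the members at 0.42 and *Paqr6* lowest at -0.48, and all 14 astrocyte genes lie below 0.

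Whether ELE altered these transcripts was asked in each set of libraries. In the right hippocampus none of the 9 members was called, where 0.746% of 17570 genes were called higher and 1.23% lower, 1.97% together. No gene passed after adjustment in edgeR's quasi-likelihood test, 488 had an unadjusted p under 0.05, and 14 passed after adjustment with DESeq2. The log2 fold changes of ELE against sedentary ran from -0.21 for *Mog* to 0.08 for *Pdgfra*. *Mog* had 28.7, 37.4 and 39.7 CPM in ELE and 32.6, 42.1 and 48.0 CPM in sedentary mice, and the groups overlapped. *Paqr6* had 15.2, 15.9 and 16.02 CPM in ELE and 15.4, 16.6 and 19.9 CPM in sedentary mice. The change was -0.14 on the log2 scale, standard error 0.14 (edgeR, unadjusted p = 0.322 and adjusted p = 1.0).

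Mouse TG7.3.3 decided the direction of the compact myelin genes on the right. *Mobp* was at 705 CPM in it and at 353 and 424 CPM in the other sedentary mice, with 388, 451 and 484 CPM in ELE mice. Its log2 fold change was -0.16 with all 6 libraries and 0.18 without TG7.3.3, and that of *Mbp* went from -0.12 to 0.18. Summed endothelial markers were 30.6 CPM in TG7.3.3 and at most 4.34 CPM in the right ELE libraries, with 2 of 7 endothelial genes called lower in ELE, and all 4 choroid plexus genes tested were called lower. Their part in the values of *Mbp* and *Mobp* was not tested. Of the 32 myelin genes 0 were called, and 8 had a positive fold change.

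In SIT none of the 9 members was called either, where 1.54% of 18238 genes were called higher and 2.11% lower, 3.65% together. After adjustment 0 genes passed with edgeR's quasi-likelihood test, with 1000 at an unadjusted p under 0.05, and 14 passed with DESeq2. All 9 log2 fold changes were below 0, between -0.26 for *Sox10* and -0.01 for *Mobp*, and the median over the members was -0.13, against 0.00 over all genes. Markers of other cells moved too. Choroid plexus genes had a median of -0.87 with 2 of 5 called lower, 11 microglial genes had a median of -0.38, interneuron genes one of -0.37 with *Pvalb* called lower, and all 8 excitatory genes were positive with *Prox1* called higher. Their part in the members' values was not tested. *Sox10* had 27.197, 30.3 and 41.8 CPM in ELE and 37.8 and 41.7 CPM in sedentary mice. For all 5 myelin members NT6.303 was the highest of the 3 ELE libraries. For *Mag* it had 87.8 CPM, beside 63.2 and 66.3 CPM in TG7.4.1 and TG7.4.2 and 83.9 and 88.3 CPM in the sedentary mice.

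The calls in SIT depended on single libraries. Without NT6.303, *Mbp* (-0.41), *Mag* (-0.41) and *Sox10* (-0.47) were called lower, where 2.67% of 17819 genes were in the same fit, with adjusted p of 0.651, 0.691 and 0.737 from edgeR. Without TG7.4.2, *Paqr6* was called at -0.46 (edgeR, adjusted p = 0.415), where 3.69% of genes were called lower. With all 8 libraries *Mag* was called at -0.62 (edgeR, adjusted p = 0.48), with 5.41% of genes called lower. NT7.2.3 and NT7.2.4, with the highest *Mag* of all libraries, are among the sedentary mice. Within the mice numbered NT6 alone, which leaves out TG7.4.1 and TG7.4.2 and takes back NT6.304, *Mbp*, *Mag*, *Mobp* and *Sox10* were at 0.22, 0.03, 0.19 and 0.20, on the other side of 0. The mice numbered TG7.4 were all ELE, so for them exercise cannot be told apart from the mouse number. With the 5 kept libraries 1.54% of all genes were called higher and 2.11% lower. There, of 31 myelin genes tested *Pllp* was called higher (0.49) and *Aspa* lower (-0.99). Of 16 progenitor genes *Cspg4* was called lower (-0.58). Such single calls are not read as a result about the lists.

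In the left hippocampus the values are a description, since *Paqr6* was picked there. *Paqr6* had 12.5, 12.6 and 14.6 CPM in ELE and 20.4, 20.46 and 22.04 CPM in sedentary mice. This is -0.67 on the log2 scale (standard error 0.11), in a comparison where 1.1% of genes were called higher and 0.963% lower, 2.07% together. The 8 other members lay between -0.24 for *Mog* and 0.16 for *Sox10*, and 7 of the 9 were negative. The sign of *Pdgfra* (0.02) depended on single libraries, with -0.10 to 0.12 when each was left out. *Mbp* had -0.18, *Mobp* -0.17, *Cnp* -0.20 and *Olig1* -0.19. Of 31 myelin genes tested 2 were positive, with a median of -0.18. Among them 1 was called lower, *Nkx6-2* (-0.44), where 0.963% of genes were, and 0 higher. Other lists lay on one side as well, as 2 of 14 astrocyte genes were positive (median -0.09), 0 of 5 choroid plexus genes (median -0.96) and 5 of 6 interneuron genes (median 0.17), against a median of 0.00 over all genes. Their part in the values of the members was not tested. On the right, in other mice, the levels of *Paqr6* in ELE and sedentary mice both lay between these groups; the difference between sides was not tested.

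The left and right hippocampi were compared over the 12 separate libraries, with exercise in the model. None of the 8 members other than *Paqr6* was called, where 0.678% of 18283 genes were called higher on the left and 0.459% lower, 1.14% together, and no gene passed after adjustment in edgeR's quasi-likelihood test (457 had an unadjusted p under 0.05, and 0 passed after adjustment with DESeq2). *Mog* had the largest difference of the members, 0.22 higher on the left with a standard error of 0.12 (edgeR, adjusted p = 1.0), and *Olig1* the lowest at -0.07. The 5 myelin members were all positive, from 0.10 for *Cnp*. Of the 32 myelin genes 30 were positive and 0 were called, with a median of 0.18 against 0.00 over all genes. Other lists moved as well. All 5 choroid plexus genes were positive with a median of 2.43 and *Folr1* called, 9 of 10 microglial genes were positive with a median of 0.345, and 0 of 7 endothelial genes were positive, with 2 called lower. Their part in the myelin values was not tested. Left and right libraries came from different mice, and these genes vary together between libraries, so that such a count does not rest on 32 separate observations. *Paqr6*, picked on the left libraries, differed by 0.02 between the sides, as a description.

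*Paqr6* followed *Olig1* and astrocyte genes more than it followed the myelin genes across the 20 TRAP libraries. Pearson's r with *Paqr6* was 0.87 for *Olig1*, 0.58 for *Pdgfra*, 0.26 for *Mobp*, -0.03 for *Mbp*, -0.28 for *Mog*, -0.43 for *Cnp*, -0.48 for *Mag* and -0.64 for *Sox10*. For *Olig1* it was also high in the 12 separate libraries (0.71) and in the 8 SIT libraries (0.93), but r over the 24 bulk columns was 0.04, and -0.20 without the HC columns. The remaining values depended on the libraries. Within the 12 separate libraries r was 0.48 for *Mbp*, 0.50 for *Mog*, 0.41 for *Mag*, 0.58 for *Cnp* and 0.42 for *Mobp*, and that of *Pdgfra* was 0.04. Without the 3 SIT libraries that stood outside the comparisons, *Sox10* had -0.20 and *Mag* 0.03.

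The 5 genes with the highest r to *Paqr6* among those with a mean of at least 1 CPM were *Cspg5* (0.94), *Apoe* (0.94), *Fbxl16* (0.93), *Ergic3* (0.92) and *Hepacam* (0.92). *Apoe* encodes apolipoprotein E and *Hepacam* an adhesion protein of glia. In the 12 separate libraries their r was between 0.57 and 0.67, and in the 8 SIT libraries it was between 0.92 and 0.97. With the group means removed it was between 0.85 and 0.90 over the 20 libraries. Of 14 astrocyte genes 13 had a positive r with *Paqr6*, the highest 0.89 for *Mlc1*, and the median was 0.78. This median was 0.74 without the 3 SIT libraries, 0.18 within the 12 separate libraries and -0.01 in bulk (-0.11 without the HC columns). Of 30 myelin genes 8 were positive and the median was -0.23, against 0.39 within the separate libraries. Over all genes at this level the median r was 0.01. These values have no test, and library composition, isolation and scaling are shared by all points.

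**Figure D5:**
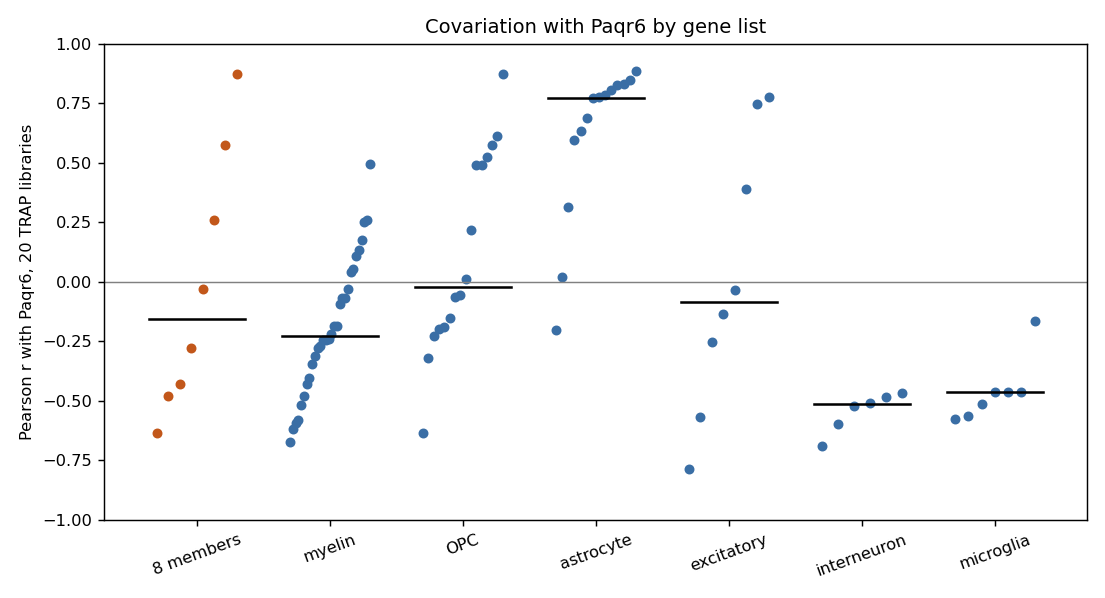
Pearson's r of log2 CPM with *Paqr6* over 20 TRAP libraries (y axis) for the 8 other members and for the genes of 6 lists (x axis). Points are genes and lines are medians. *Olig1* is the highest member at 0.87, the astrocyte median is 0.78 and the myelin median is -0.23.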

How the data were processed

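The authors quality-checked reads with FastQC 0.11.9, aligned them to GRCm38 with STAR 2.7.3a, removed duplicates with Picard 1.87, counted reads per gene on exons with strand taken into account, and deposited whole-number counts without normalization (tools and versions from the submitters' notes and the study's methods). Of the 20 TRAP and 24 bulk columns, 0 were unused. TRAP columns carry mouse numbers, and the study's sample list gives each number its group. Counts were scaled with TMM and filtered with filterByExpr in edgeR 4.0.16 (R 4.3.3), and groups were compared with its quasi-likelihood test over all genes with Benjamini-Hochberg adjustment. A gene was called, after the study's methods, at an unadjusted p under 0.05 and a change above 1.308-fold. *Paqr6* was left out of the counts of members for isolation and hemisphere, which use libraries it was picked on. Elsewhere the study states a slightly lower limit, so 1.3-fold was tried as an alternative. Libraries left out of SIT were found because 1 subset gave the mean normalized counts the study lists for 633 of 633 genes, the next best for 1. Within every group the libraries differed beyond counting noise. Correlations used log2(CPM + 0.5), and TRAP and bulk were scaled together on shared gene names. Symbols came from GENCODE, which matched 55154 of 55335 genes. *Cnp* overlaps *Dnajc7* on the opposite strand by 8912 bp, and counting by strand separates them.

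The members, the marker lists and the tests were chosen with earlier results of these data known. Genes named besides the members are, per list and comparison, up to 3 called genes with the smallest p and up to 3 at the ends or middle of the list, the 5 with the highest r to *Paqr6*, and the 10 with the highest r to the mean of the 5 myelin members. A gene that the rule names is not reported here. Single genes named outside this rule were chosen after their values were seen. Alternatives were DESeq2 1.42.0, median-of-ratios scaling, no filter, other library sets, a replicate block and leaving out each library. On simulated counts with 200 genes changed by a log2 fold of 1, edgeR recovered 99.5% among 17373 genes for the right hippocampus, 95.5% among 17417 for SIT, 100% among 17618 for hemisphere and 100% among 17582 for isolation. Of the genes that passed, 5.24%, 7.73%, 5.66% and 3.85% were unchanged, in the same order. The simulation gave all genes 1 dispersion, 0.02, and changed only well-expressed ones. Smaller changes and the spread between the real libraries were not simulated, so these shares do not apply to the members' changes. The first part of the mouse number was checked as a pairing. It was not taken as one, because the labels name no shared animal, litter or day and not every pair with the same number correlated above 0.1. Of 18 such pairs 8 did, a larger share than the 6 of 36 pairs with different numbers.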

Additional observations from a re-analysis of the deposited data

How the results depend on the processing

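Members called were 0 for exercise on the right and 0 between hemispheres under each alternative run, a limit of 1.3-fold, DESeq2, median-of-ratios scaling, no filter, the replicate block and leaving out any library among them. In SIT the count was 1 with all 8 libraries, and 0 to 3 when each library was left out. For isolation it was 1 (*Cnp*), but 2 with no filter, at a limit of 1.3-fold or against the right libraries only (*Pdgfra* added), 2 with all 8 SIT libraries (*Mag* added), 0 against the left libraries only, and 0 to 2 with libraries left out (0 without NT6.303). Without NT6.305, in ELE libraries only and with the TG7.4 SIT mice only *Pdgfra* took the place of *Cnp*. By adjusted p it was 2, but 5 with all 8 SIT libraries, 1 with sedentary or with ELE libraries only and 0 with TG7.4 mice only. Members with r above 0.5 to *Paqr6* were 2, and 1 by Spearman's rho, in the 8 SIT libraries alone or with group means removed, but 3 in the 12 separate libraries (*Olig1*, *Cnp* and *Mog*). The replicate block changed no member's call (0 called on the right, 0 for hemisphere, 1 on the left past the fold), and the numbers share no labelled animal or day. TRAP below bulk without overlap stayed at 4 members under each scaling, though with summed rows *Mog* took the place of *Mbp*. It was 6 without the 4 bulk columns named HC, and 6 without those named HC or LBN.

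The direction of some uncalled values turned. In SIT with NT6 mice only, *Mbp*, *Mag*, *Mobp* and *Sox10* were at 0.22, 0.028, 0.19 and 0.20, and with all 8 libraries *Olig1* was at 0.011. For isolation *Mbp* was at 0.037 with all 8 SIT libraries, 0.14 with NT6 mice only and 0.040 against the right only, *Mag* at -0.13 with TG7.4 mice only, *Olig1* at 0.00047 in sedentary libraries and 0.029 against the left only, and *Sox10* at -0.011 in ELE libraries and -0.22 with TG7.4 mice only. Leaving out 1 library gave, on the right, ranges of -0.28 to 0.18 (*Mbp*), -0.087 to 0.17 (*Mag*), -0.11 to 0.14 (*Cnp*), -0.36 to 0.18 (*Mobp*), -0.045 to 0.032 (*Olig1*), -0.037 to 0.16 (*Pdgfra*) and -0.076 to 0.19 (*Sox10*), in SIT -0.41 to 0.027 (*Mbp*), -0.16 to 0.12 (*Mobp*) and -0.24 to 0.069 (*Pdgfra*), for hemisphere -0.052 to 0.064 (*Paqr6*), and for isolation -0.16 to 0.051 (*Mbp*) and -0.085 to 0.031 (*Olig1*). On the left, as a description, the range was -0.10 to 0.12 for *Pdgfra*. The causes were not tested. Isolation by mouse number or against a single side, the limit of 1.3-fold, the summed rows of the bulk table and the bulk columns left out by name were alternatives chosen after seeing the data.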

Other observations

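Genes outside the 9 that ran closest to the myelin members were sought by r to the mean log2 CPM of *Mbp*, *Mog*, *Mag*, *Cnp* and *Mobp* over the 20 TRAP libraries. Among the 10 highest were *Tmem88b* (0.87), *Mal* (0.86), *Dusp10* (0.84), *Enpp6* (0.83), *Unc5b* (0.82), *Gjc3* (0.82), *Ndrg1* (0.82), *Gal3st1* (0.80) and *Qdpr* (0.80). *Mal* encodes a membrane protein of myelin, *Gal3st1* the enzyme that makes sulfatide, a myelin lipid, *Gjc3* a connexin of oligodendrocytes, and *Enpp6* a phosphodiesterase of newly formed oligodendrocytes. Within the 12 separate libraries the r of these genes was between 0.55 for *Unc5b* and 0.89 for *Qdpr*. Among the members the mean ran closest to *Mog* (0.90) and *Mag* (0.89), which are part of it, and *Sox10* had 0.62, *Pdgfra* 0.16, *Paqr6* -0.28 and *Olig1* -0.37. These are descriptions over shared libraries with no test.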
